A study of Mus musculus with 21 samples.

Results

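Epiblast stem cells (EpiSCs) carrying the line name E14 were compared between 2 culture media, AFX and AF. Members were taken by the culture condition in the labels: 6 of the 21 samples of the series, 3 grown in AFX and 3 in AF, each medium sampled at passages 14, 15 and 16. All 6 are described as EpiSCs with E14 in the sample description, each held 1000 cells, and their total RNA was isolated with a PicoPure kit and sequenced. The labels name no strain, sex, genotype, transgene, feeder layer or substrate for either medium, and do not say whether the cultures were derived separately. Replicates are passages of a culture rather than separate derivations, so p-values measure the spread between passages, and a difference between the media cannot be told apart from a difference between the 2 cultures. The other samples entered only where stated: 6 samples of the formative stem cell (FS) lines FS1 and FS2, kept in a medium called A3XR, and 9 single epiblasts.

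The letters of the media are not spelled out in the labels. In work on EpiSCs, AF commonly stands for activin and FGF, and X for a tankyrase inhibitor, and that reading is given here as background only. EpiSCs are cultured counterparts of the epiblast after implantation. Activin and NODAL signal through SMAD proteins to hold them in pluripotency, FGF signals through ERK, and canonical WNT signalling through beta-catenin drives them towards primitive streak and mesendoderm. Tankyrases mark AXIN for degradation, so inhibiting them stabilises AXIN, a scaffold of the complex that destroys beta-catenin. E14 is a male mouse embryonic stem cell line, and a derivative in wide use lacks a working Hprt gene.

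The line name was first checked against the data. Values are CPM, read counts relative to the library total, scaled by the trimmed mean of M-values (TMM). Hprt, which encodes a purine salvage enzyme, lay between 0.135 and 0.985 CPM in all 6 samples, against means of 76.2 ± 13.9 CPM (SD, n = 3) in FS1 and 68.4 ± 2.85 CPM (n = 3) in FS2. Xist, the RNA that coats an inactive X chromosome, was below 1 CPM in each of the 6. The Y-linked genes Uty and Ddx3y were present in both media, at 36.8 to 51.1 CPM and 60.04 to 87.3 CPM. Of 5 protein-coding Y-linked genes with a mean of at least 5 CPM, 1 was higher and 1 lower in AFX past the threshold given below. The lower one, the histone demethylase gene Kdm5d (chrY:897788-956786), was at 14.6, 25.1 and 18.5 CPM in AF and 0.0719, 0.269 and 0 CPM in AFX. Its 3 AFX libraries held 3 counts between them and the AF libraries 561, a ratio of 216 with an exact 95% binomial interval of 73.7 to 1052 that covers counting error only (adjusted p 1.49e-06). The ratio was 142 without AFX passage 16 and 501 without AFX passage 15, where 1 count was left. Of the 9 markers of EpiSC identity on a list of marker genes, all were detected in both media and 8 did not pass the test between them.

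Counts were fitted with edgeR's quasi-likelihood test, with Benjamini-Hochberg adjustment over all genes tested and an adjusted p under 0.05 as the threshold. Fold changes are AFX against AF on the log2 scale, with their standard error (SE), and brackets after a gene's values give its log2 fold change ± SE with the adjusted p. Total counts ran from 7768822 to 10960885 in AF and from 7703118 to 13965234 in AFX. Of 16052 genes tested, 1859 passed (11.6%), 941 higher (5.86%) and 918 lower (5.72%) in AFX, and 1048 passed with at least a 2-fold change (6.53%). The median over all genes tested was 0.01. With each of the 6 samples left out in turn the count ran from 1187, without AFX passage 15, to 1807, and 940 of the 1859 genes passed in all of these fits. In 26.7% of all genes tested the 3 AFX and 3 AF values did not overlap; of the genes named below with a call, Fzd10, Mixl1, Zic1 and Zcwpw1 overlapped and the others did not. AF passage 15 correlated less with the other AF samples (r across genes 0.958 and 0.95) than those with each other (0.976), and r between media was 0.913 to 0.943. By the median absolute log2 difference per gene the media did not separate: AF passage 15 differed from the other AF samples by 0.396 and 0.428, and pairs of 1 AF and 1 AFX sample by 0.313 to 0.498. Ribosomal RNA loci took 25.4% to 28.4% of counts in AF and 24% to 25% in AFX, and without those loci 1866 genes passed, 1829 of them among the 1859.

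The most regular difference lay along 1 chromosome. Of 415 protein-coding genes of chromosome 15 with a mean of at least 5 CPM, 88.4% had a positive fold change, 212 were higher in AFX and 8 were lower. Their median log2 fold change was 0.54, a 1.45-fold difference. Among the other autosomes and the X chromosome the median ran from -0.10 on chromosome 6 to 0.04 on chromosome 13. The shift was present along the length of the chromosome, with medians of 0.39 to 0.60 in its 6 windows of 20 Mb.

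In each sample, the level of a chromosome was taken as the median of its genes' log2 values relative to the mean of the FS and epiblast samples, with each sample centred on its median over all these genes. Chromosome 15 stood at 0.53, 0.51 and 0.52 in AFX at passages 14, 15 and 16. In the 18 samples that were not AFX it lay between -0.08 and 0.08. All 3 AFX samples were thus raised by similar amounts, and no other sample overlapped them. Genes of chromosome 15 made up 231 of the 941 genes higher in AFX (24.5%) and 561 of the 16052 tested (3.49%), but 15 of the 918 lower genes (1.63%). Off chromosome 15, 710 genes were higher (4.58%) and 903 lower (5.83%) of 15491. For scale, a ratio of 3 to 2 is 0.58 in log2 units. DNA copy number was not measured, and genes of chromosome 15 are marked as such below.

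**Figure D1:**
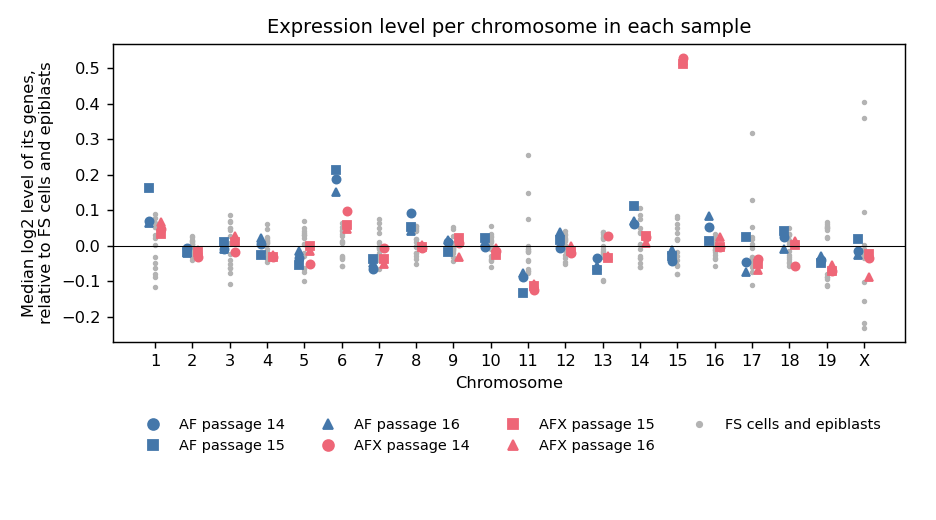
Median log2 level of each chromosome's protein-coding genes per sample (y axis, relative to the mean of the FS and epiblast samples) for chromosomes 1 to 19 and X (x axis). The 3 AFX samples sit at 0.51 to 0.53 on chromosome 15, where the 18 other samples lie between -0.08 and 0.08.

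**Figure D2:**
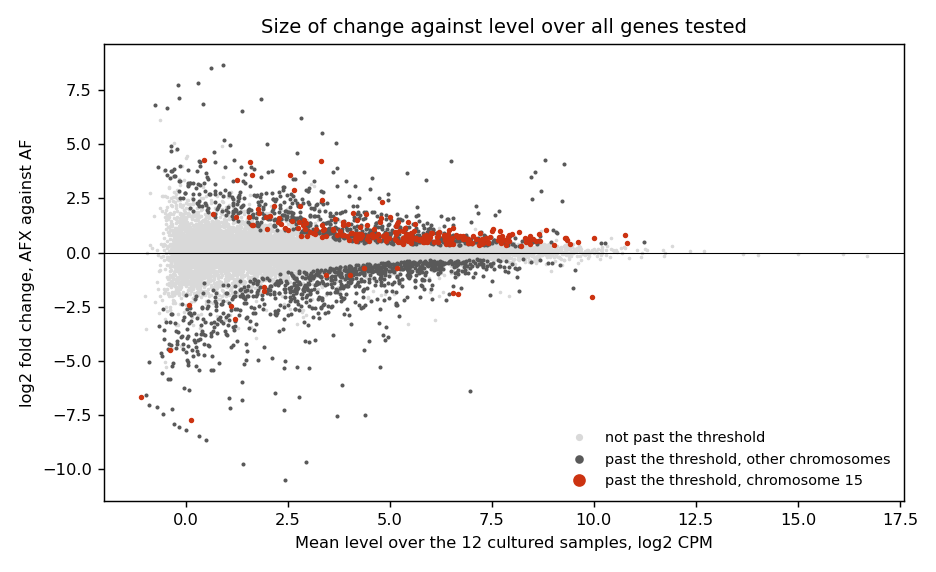
Fitted log2 fold change of AFX against AF (y axis) against the mean log2 CPM of the 12 cultured samples (x axis) for 16052 genes; values of genes without a count in one medium depend on the prior count of the fit. Red points are chromosome 15 genes past the threshold and form a band above 0, with 231 of 246 higher in AFX.

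The largest rises among genes with at least 10 CPM in AFX and no overlap between the media were led by Sycp3, Ccdc177 and the long noncoding RNA Platr15. Sycp3 (ENSMUSG00000020059, chr10:88459569-88473236), which encodes a lateral element protein of the synaptonemal complex of meiosis, was at 0.399, 0.189 and 0.3003 CPM in AF and 41.6, 13.6 and 11.5 CPM in AFX, a change of 6.23 ± 0.74, adjusted p 2.00e-04. Passage 14 was the highest AFX sample, and without it the change was 5.38. Ccdc177, a coiled-coil gene, was at 0.532, 0 and 0.3003 CPM in AF and 6.26, 15.9 and 14.1 CPM in AFX (5.5 ± 0.55, adjusted p 3.80e-05; 6.23 without AF passage 14 and 4.85 without AF passage 15). Platr15 was at 0.931, 1.04 and 1.3 CPM in AF and 32.8, 25.6 and 52.4 CPM in AFX (5.06 ± 0.36, adjusted p 9.65e-07). Cyp2b23, a cytochrome P450 gene of a multigene family whose counts are therefore uncertain, was at 0.798, 0.945 and 1.8 CPM in AF and 9.85, 23.7 and 20.9 CPM in AFX (3.89 ± 0.47, adjusted p 2.13e-04). Mctp1, a calcium-binding C2 domain gene, was at 1.6, 0.756 and 2.6 CPM in AF and 19.8, 26 and 20.2 CPM in AFX (3.73 ± 0.47, adjusted p 2.74e-04). Lrmp, also called Jaw1, was at 0.532, 0.567 and 1.3 CPM in AF and 10.1, 10.8 and 12.5 CPM in AFX (3.76 ± 0.51, adjusted p 3.55e-04). Both gave similar levels in all 3 AFX samples. Scube1 on chromosome 15, a secreted EGF-domain protein, was at 1.6, 1.89 and 0.2002 CPM in AF and 3.88, 17.4 and 47.9 CPM in AFX (4.23 ± 0.96, adjusted p 0.0164; 3.07 without AFX passage 16), with passage 16 highest, and it lost the call when any AF sample was left out.

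A set of 8 loci shared an expression pattern and, to unlike degrees, sequence. Wdr31, Noct, Gm9864, Gm10040, Gm14149, Gm29084, Gm38194 and Gm42860 held all 6 of the rises with the smallest p among genes of at least 100 CPM. Wdr31 was at 25.7, 30.4 and 27.4 CPM in AF and 371, 369 and 342 CPM in AFX (3.69 ± 0.14, adjusted p 4.06e-10). The pseudogene Gm9864 was at 34.6, 48.4 and 51.7 CPM in AF and 809, 782 and 669 CPM in AFX (4.06 ± 0.3, adjusted p 8.48e-06). Noct, which encodes the deadenylase-related protein nocturnin, was at 144, 142 and 172 CPM in AF and 814, 867 and 693 CPM in AFX (2.37 ± 0.14, adjusted p 1.82e-07). Each of the 8 shared words of 31 bases with at least 1 other in annotated transcripts. Noct held 93.8% of the words of Gm29084 and 68.5% of those of Gm42860, and Gm9864 and Gm10040 shared 76.1% of the words of Gm9864. Other pairs shared few words or no words. Wdr31 shared at most 3.59% of its words with any other of the 8 (Gm14149). It shared 2.52% with Noct and no words with Gm38194 or Gm29084. Reads of one source could have been counted at several of these loci, and their values are uncertain. The same loci differed between the FS lines: Wdr31 was at 18.7 ± 3.06 CPM in FS1 and 1109 ± 114 CPM in FS2, and Gm9864 at 51.2 ± 26.2 CPM and 1617 ± 135 CPM. With both FS lines in 1 group, whose spread then holds that difference, none of the 8 passed the threshold. With the 6 AFX and AF samples alone all of them did.

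The largest falls included genes without a single count in AFX. Col11a1 (ENSMUSG00000027966, chr3:114030540-114220718), a fibrillar collagen, was at 17.1, 16.7 and 17.4 CPM in AF and 0 CPM in all 3 AFX samples and so was at least 57.8-fold lower against a floor of 3 counts per library (adjusted p 4.52e-04). Epha3, an ephrin receptor, was at 19.8, 8.88 and 2.4 CPM in AF and 0 CPM in all 3 AFX samples, at least 35-fold lower (adjusted p 0.00277). AF passage 14 was highest, and without it the bound was 19-fold. Penk, which encodes proenkephalin, was at 67, 60.8 and 56.7 CPM in AF and 0.647, 0 and 0.179 CPM in AFX (-7.49 ± 0.52, adjusted p 2.41e-06; -9.03 without AFX passage 14). Anxa1, an annexin gene, was at 23, 13.5 and 16.7 CPM in AF and 0.0719, 0.135 and 0.358 CPM in AFX (-6.49 ± 0.6, adjusted p 1.47e-05; -7.38 without AFX passage 16). Both had at most 1 CPM in every AFX sample. Sfn, the epithelial 14-3-3 sigma protein, was at 42.8, 42 and 46.7 CPM in AF and 0.575, 0.942 and 0.448 CPM in AFX (-6.11 ± 0.9, adjusted p 0.00166). Pga5, a pepsinogen gene, was at 12.2, 58 and 9.01 CPM in AF and 0, 0 and 0.716 CPM in AFX (-6.68 ± 1.02, adjusted p 0.00157), with AF passage 15 far above the others, and the change was -5.36 without AF passage 15, -5.98 without AFX passage 14 and -11.13 without AFX passage 16. Gbp2 and Gbp2b, neighbouring interferon-inducible GTPase genes of a multigene family, changed by -5.34 ± 0.69, adjusted p 4.26e-04 and -5.28 ± 0.58, adjusted p 1.97e-04, and are uncertain because their copies are similar. Parp12, another gene known to respond to interferon, was at 10.8, 3.21 and 17.9 CPM in AF and 0.144, 0.673 and 0.0895 CPM in AFX (-5.31 ± 0.78, adjusted p 8.40e-04; -4.69 without AF passage 16 and -6.34 without AFX passage 15).

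Of falls with the smallest p among genes of at least 100 CPM, Baz1a, a chromatin remodelling subunit, was at 112, 95.9 and 124 CPM in AF and 31.8, 25.4 and 23 CPM in AFX (-2.05 ± 0.18, adjusted p 1.01e-05). Myh9, the heavy chain of non-muscle myosin IIA, was at 864, 1407 and 1064 CPM in AF and 233, 276 and 301 CPM in AFX (-2.04 ± 0.23, adjusted p 1.92e-04). It lies on chromosome 15, against the direction of most genes there. Car4, a carbonic anhydrase gene, Itpr3, an inositol trisphosphate receptor gene, and Polg, the mitochondrial DNA polymerase gene, changed by -1.63 ± 0.22, adjusted p 4.06e-04, -1.48 ± 0.22, adjusted p 7.00e-04 and -0.8 ± 0.11, adjusted p 3.82e-04. Each kept the call without any 1 sample.

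**Figure D3:**
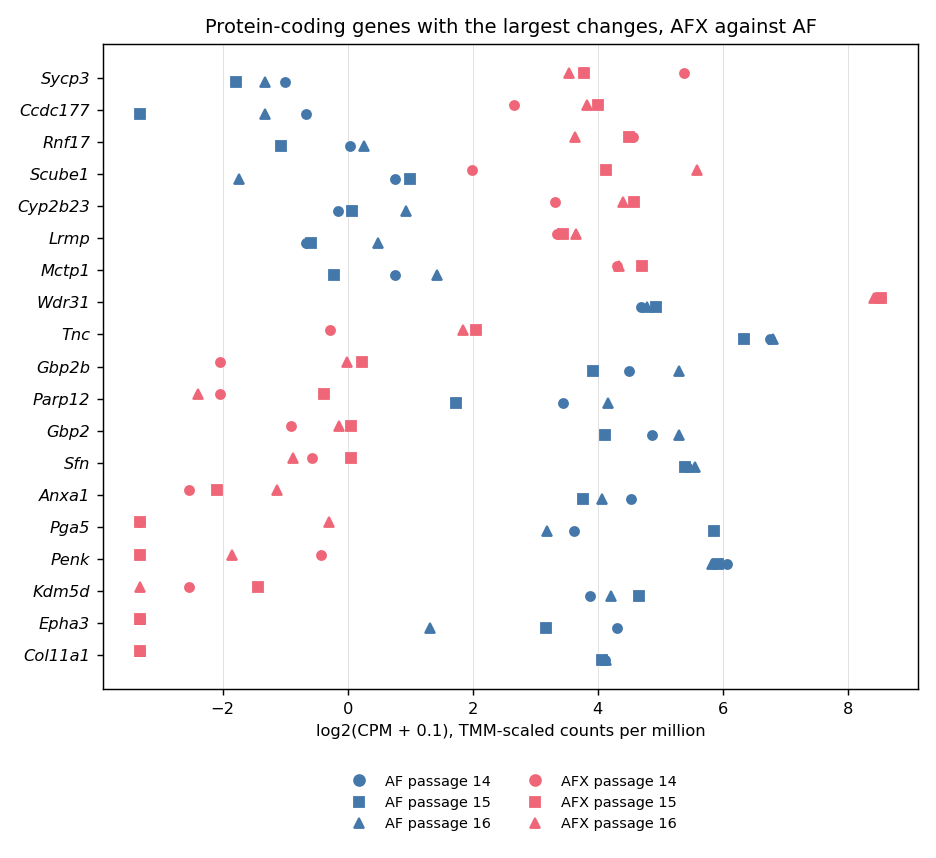
Level of protein-coding genes with the largest changes in each of the 6 samples (x axis, log2 of CPM plus 0.1), AF in blue and AFX in red, with the marker shape giving the passage. Genes were chosen among those whose media do not overlap, and the points of Col11a1 and Epha3 in AFX lie at the value of 0 CPM.

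Gene lists covered signalling pathways known in EpiSCs, pluripotent and early embryonic states, and other cell types and processes. Each is described by how many of its tested members passed, beside the 5.86% higher and 5.72% lower over all genes, and by its median log2 fold change. Members with too few counts were not tested, and a gene that passed the filter on low counts only through its level in 1 medium could not be lower there, so a share describes the tested members and not the whole list. Of 13 general pluripotency genes tested, 2 were higher and 1 lower (23.1%), with a median of 0.25 that turned to -0.03 without AF passage 15. Pou5f1, the core POU factor, was at 490.4, 327 and 436 CPM in AF and 522, 385 and 452 CPM in AFX, a change of 0.12 ± 0.16, adjusted p 0.726. Sox2, its partner, was at 40.5, 24 and 43.7 CPM in AF and 55.7, 108 and 97.1 CPM in AFX and rose by 1.26 ± 0.28, adjusted p 0.0113. The 2 media did not overlap for Sox2, but it missed the threshold without AF passage 15 (adjusted p 0.0547). Nanog, which was lower in every AFX sample than in any AF sample, was at 58.6, 55.5 and 51.8 CPM in AF and 34.6, 10.2 and 34.1 CPM in AFX and did not pass (-1.05 ± 0.35, adjusted p 0.0763). Dppa2 and Tdgf1, the other 2 calls, each depended on 4 of the single samples left out, and none of the 13 passed without AF passage 15 and 1 without AF passage 14.

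Of 14 naive pluripotency genes, which mark the preimplantation state, 8 were tested, and 3 were lower and 1 higher in AFX, with a median of -1.50. At a mean of at least 5 CPM the median was -2.49 and 3 passed. Klf5 was at 27.4, 41.1 and 27.7 CPM in AF and 4.03, 8.61 and 5.01 CPM in AFX (-2.48 ± 0.41, adjusted p 0.00166). Tfcp2l1 was at 6.11, 16.2 and 8.21 CPM in AF and 1.22, 0.538 and 2.86 CPM in AFX (-2.68 ± 0.55, adjusted p 0.00604), and its highest AFX value was at passage 16 (-3.43 without AFX passage 16). Zfp42, also called Rex1, was at 2.26, 2.46 and 5.3 CPM in AF and 0.0719, 0 and 0.179 CPM in AFX, with 3 counts in all AFX libraries together, a ratio of 37 (exact 95% binomial interval 12.3 to 183, adjusted p 0.00239; ratio 72.9 without AFX passage 16, where 1 count was left). These 3 transcription factor genes were lower in every AFX sample than in any AF sample. Fgf4, the FGF ligand of the epiblast, went the other way, at 8.51, 8.7 and 7.81 CPM in AF and 18.2, 21.4 and 17.1 CPM in AFX (1.18 ± 0.27, adjusted p 0.00964). The 4 calls held without any 1 sample. Esrrb (-0.17 ± 0.58, adjusted p 0.901) and Klf4 (-1.17 ± 0.36, adjusted p 0.0502) did not pass, although Klf4 did without AFX passage 14.

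Of 15 formative and early postimplantation genes tested 2 were higher and 1 lower, with a median of 0.23, and 1 passed without AF passage 14 or AFX passage 15. Sall2, a spalt family zinc finger gene, was at 57, 52.9 and 57.7 CPM in AF and 97.1, 137 and 171 CPM in AFX (1.27 ± 0.19, adjusted p 6.47e-04). Otx2 (0.03 ± 0.24, adjusted p 0.964), Fgf5 (-0.26 ± 0.28, adjusted p 0.635) and Pou3f1 (0.2 ± 0.18, adjusted p 0.549), transcription factor and ligand genes of the early epiblast, had overlapping groups. Zic2 (0.57 ± 0.16, adjusted p 0.0283) passed but lost the call without any of AF passages 14 and 15 and AFX passages 14 and 15. Grhl2 (-0.73 ± 0.2, adjusted p 0.024), a grainyhead factor on chromosome 15, lost it without AF passage 14 or 16 or AFX passage 15.

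WNT feedback and target genes are switched on by beta-catenin with TCF/LEF factors. Of 15 tested, 1 was lower and none higher (6.67% called, against 11.6% of all genes), with a median of -0.11 that turned to 0.21 without AF passage 16. Without the filter on low counts 5 of the 15 passed, with the 6 AFX and AF samples alone 2 did, and with both FS lines in 1 group none did. The gene called was Dkk1, a secreted WNT antagonist, at 16.6, 11.8 and 18.3 CPM in AF and 1.51, 2.29 and 2.6 CPM in AFX (-2.88 ± 0.64, adjusted p 0.0134). All AFX samples lay below all AF samples, but the adjusted p was 0.0508 without AFX passage 14 and 0.0522 without AFX passage 15. Axin2, a widely used read-out of the pathway, was at 19, 9.26 and 30.6 CPM in AF and 19.7, 17.4 and 20.1 CPM in AFX, a change of -0.04 ± 0.45, adjusted p 0.974. Its AFX samples fell within the range of AF. Sp5, a zinc finger target gene, was at 9.57, 1.32 and 15.8 CPM in AF and 0.863, 0.269 and 1.16 CPM in AFX and did not pass (-3.45 ± 1.17, adjusted p 0.0859; -2.74 without AF passage 16), with passage 15 far below the other AF samples. Lef1 (0.42 ± 0.31, adjusted p 0.469), Nkd1 (0.28 ± 0.29, adjusted p 0.632), Znrf3 (0.16 ± 0.18, adjusted p 0.664) and Lgr5 (-1.43 ± 0.68, adjusted p 0.225; -0.78 without AF passage 16 and -2.16 without AFX passage 16) did not pass either. AF passage 15 was the lowest of the 6 samples in the mean log2 level of the list, at 3.25, against 4.13 and 4.36 in the other AF samples and 3.40 to 3.54 in AFX.

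The promoter of Dkk1 is shown as that of the only gene called on this list, from RefSeq on GRCm38.p6, 250 bases ending before the start site (chr19:30549497-30549746, minus strand), with the letters CTTTGA, a core match to TCF/LEF sites, in capitals on either strand.
Dkk1: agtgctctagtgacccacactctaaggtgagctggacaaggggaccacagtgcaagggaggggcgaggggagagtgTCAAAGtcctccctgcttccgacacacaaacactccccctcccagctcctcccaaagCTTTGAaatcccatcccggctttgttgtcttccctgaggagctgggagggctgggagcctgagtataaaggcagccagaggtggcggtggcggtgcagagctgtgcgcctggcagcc
Both matches lie within 174 bases of the start. The letters CTTTGA, searched on both strands, occurred in 13.8% of 32851 such mouse promoters and in 6 of 19 matched promoters of 11 genes on the list (31.6%), where a gene with several start sites has several promoters. Of the 10 matched genes of the list that were not called, 5 also held it.

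WNT ligands held no call among 14 tested, with a median of -0.43 and 1 call with AF passage 14 left out. At an unadjusted p under 0.05, 1 of the 14 differed, and DESeq2's Wald test called 0. Wnt3 was at 16.9, 6.9 and 19.5 CPM in AF and 4.67, 3.77 and 7.88 CPM in AFX (-1.39 ± 0.69, adjusted p 0.244). Among 22 receptors and secreted inhibitors 2 were higher and 2 lower. Sfrp5, a secreted frizzled-related inhibitor, was at 6.38, 28.8 and 4.7 CPM in AF and 0.431, 0.942 and 0.627 CPM in AFX (-4.37 ± 0.8, adjusted p 0.00373), with AF passage 15 highest, and the change was -3.08 without AF passage 15. Fzd9, Fzd10 and Sfrp2, the other calls, were each lost without at least 3 of the single samples, and the count was 2 without any of AF passages 14, 15 and 16 and AFX passage 14, 1 without AFX passage 15 and 5, 1 higher and 4 lower, without AFX passage 16. Among 23 genes of the intracellular machinery 2 were higher and 1 lower. Apc2, an APC paralogue, was at 5.05, 3.78 and 5.8 CPM in AF and 12.9, 10.5 and 21.5 CPM in AFX (1.63 ± 0.28, adjusted p 0.00185). Tnks2, which encodes a tankyrase, was at 449, 456 and 428 CPM in AF and 339, 364 and 343 CPM in AFX (-0.35 ± 0.09, adjusted p 0.0166), a small difference with no overlap that missed the threshold without AFX passage 16 (adjusted p 0.053). Among the fits with 1 sample left out, its paralogue Tnks (-0.49 ± 0.18, adjusted p 0.108) passed only without AF passage 14 or 16. Axin1 (-0.14 ± 0.12, adjusted p 0.551) and Ctnnb1 (0.24 ± 0.1, adjusted p 0.133), the beta-catenin gene, did not pass.

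Of 13 streak and mesoderm genes tested, 4 were lower and none higher, with a median of -2.11. Mixl1, a homeobox gene of the streak, was at 14.8, 0.662 and 32.8 CPM in AF and 0.288, 0 and 1.25 CPM in AFX (-4.85 ± 1.2, adjusted p 0.0237; -3.79 without AF passage 16 and -6.37 without AFX passage 16). Its groups overlapped through AF passage 15. T, the brachyury gene, was at 60.2, 12.8 and 111 CPM in AF and 17.1, 16 and 9.31 CPM in AFX and did not pass (-2.11 ± 1.17, adjusted p 0.321; -1.36 without AF passage 16). AF passage 15 lay within the AFX range. Eomes, a T-box factor of the same region, was at 72.2, 57.3 and 144 CPM in AF and 37.9, 54.9 and 77.5 CPM in AFX (-0.69 ± 0.38, adjusted p 0.315). The calls of Mixl1, Lhx1, Gsc and Pdgfra rested on single samples: without AF passage 16, AFX passage 14 or AFX passage 15 none of the 13 passed, without AF passage 14 or 15 1 and 3 passed, and without AFX passage 16 4 did. The count was also 11 without the filter on low counts and 1 with both FS lines in 1 group.

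All 8 endoderm genes tested had a negative change, 4 of them past the threshold, with a median of -2.93. Hhex, a homeobox gene of anterior endoderm, was at 21.7, 19.4 and 37.2 CPM in AF and 2.37, 1.35 and 5.91 CPM in AFX (-2.99 ± 0.52, adjusted p 0.00282; -3.75 without AFX passage 16) and kept the call without any 1 sample. Sox17 was at 28.7, 25.4 and 46.3 CPM in AF and 0.503, 0 and 5.37 CPM in AFX (-4.04 ± 0.91, adjusted p 0.0219; -6.67 without AFX passage 16). Gata4 was at 6.65, 16.8 and 9.01 CPM in AF and 0.216, 0.269 and 2.15 CPM in AFX (-3.59 ± 0.79, adjusted p 0.013; -5.46 without AFX passage 16). Both are transcription factor genes of endoderm, and both were highest in AFX at passage 16. Cer1, a secreted antagonist of NODAL and WNT, was at 227, 224 and 278 CPM in AF and 7.26, 6.32 and 68.8 CPM in AFX and did not pass (-3.13 ± 1.02, adjusted p 0.0857), but without AFX passage 16 it changed by -5.15 (adjusted p 0.00879). Without that sample 6 of the 8 passed and the median was -5.21, and all 8 passed without the filter on low counts. Sox17 lost the call without AF passage 15 or 16 or AFX passage 14, Gata4 without AFX passage 15, and Gata6 (-2.87 ± 0.76, adjusted p 0.0277; -5.27 without AFX passage 16) without AF passage 15 or 16 or AFX passage 15. The count was 2 without AF passage 15, AF passage 16 or AFX passage 15.

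Of 19 NODAL pathway genes tested, 5 were lower and 3 higher, with a median of -1.07. Nodal itself was at 28, 13.8 and 30.03 CPM in AF and 1.15, 0.807 and 10.1 CPM in AFX (-2.54 ± 0.72, adjusted p 0.042; -4.55 without AFX passage 16), a call lost without any of AF passages 14, 15 and 16 and AFX passages 14 and 15. The co-receptor gene Cfc1 was at 6.91, 13 and 9.91 CPM in AF and 1.22, 0.942 and 1.16 CPM in AFX (-3.14 ± 0.52, adjusted p 0.00149). Its relative Tdgf1 was at 98.9, 57.7 and 123 CPM in AF and 6.18, 0.538 and 22.2 CPM in AFX (-3.23 ± 0.83, adjusted p 0.0302; -4.62 without AFX passage 16) and lost the call without any AF sample or AFX passage 14. Skil, a feedback repressor of SMAD signalling, was at 245, 230.1 and 239 CPM in AF and 93.2, 90.7 and 155 CPM in AFX (-1.07 ± 0.21, adjusted p 0.00505). Furin, a convertase that processes the NODAL precursor, was at 37.4, 49.7 and 45.5 CPM in AF and 25.7, 13.5 and 19.2 CPM in AFX (-1.17 ± 0.2, adjusted p 0.0019). Cfc1, Skil and Furin kept their calls without any 1 sample. Lefty1, a NODAL antagonist, was at 164, 86.8 and 215 CPM in AF and 0, 0.673 and 46 CPM in AFX (-3.3 ± 1.26, adjusted p 0.141; -2.7 without AFX passage 14 and -9.26 without AFX passage 16). Lefty2, its neighbour and close relative, was at 27.4, 30.6 and 15.3 CPM in AF and 0, 0.269 and 10.5 CPM in AFX (-2.74 ± 1.08, adjusted p 0.146; -2.14 without AFX passage 14 and -7.82 without AFX passage 16). These target genes did not pass with all samples, and in both AFX passage 16 stood well above the other AFX samples. Both passed without it, when 13 of the 19 were called. Without AFX passage 15 5 were called. Gdf3, a NODAL-related ligand, was higher, at 5.85, 4.35 and 4.1 CPM in AF and 11.3, 15.5 and 12.2 CPM in AFX (1.45 ± 0.31, adjusted p 0.00728). The other 2 higher genes, the receptor gene Acvr1b (0.6 ± 0.15, adjusted p 0.0159) and the SMAD partner Foxh1 (0.61 ± 0.14, adjusted p 0.0085), lie on chromosome 15, and both lost the call without AFX passage 15. Smad2 (-0.25 ± 0.14, adjusted p 0.304), Smad3 (0.27 ± 0.2, adjusted p 0.472) and Smad4 (-0.17 ± 0.1, adjusted p 0.32) did not pass.

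**Figure D4:**
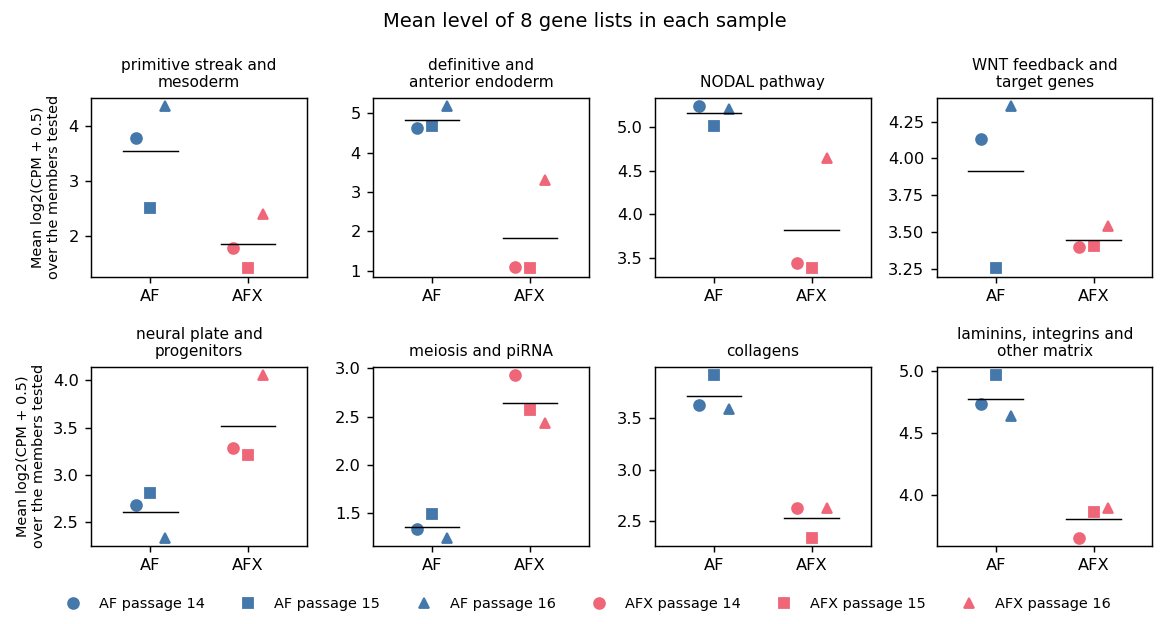
Mean log2(CPM + 0.5) over the tested members of 8 gene lists (y axis, a separate scale in each panel) in the 3 AF samples in blue and the 3 AFX samples in red, with the mean of each medium as a line and the passage as the marker shape. AFX passage 16 lies above the other AFX samples for endoderm (3.31 against 1.06 and 1.10) and NODAL genes (4.64 against 3.38 and 3.45) and for neural genes (4.06 against 3.22 and 3.29).

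In the BMP pathway, 5 of 20 genes were lower and 1 higher, with a median of -0.18, and 3 passed without AFX passage 15. Bambi, a decoy receptor that dampens TGF-beta family signals, was at 13.3, 20.7 and 14.9 CPM in AF and 58.8, 57.5 and 52.5 CPM in AFX (1.78 ± 0.21, adjusted p 1.49e-04). Bmp4 was at 5.32, 8.98 and 8.21 CPM in AF and 1.73, 3.09 and 2.06 CPM in AFX (-1.74 ± 0.35, adjusted p 0.00474). The receptor gene Bmpr2 was at 104, 112 and 98.4 CPM in AF and 51.4, 59.9 and 70.8 CPM in AFX (-0.79 ± 0.14, adjusted p 0.00178). These 3 kept the call without any 1 sample, whereas Bmp2 (-1.7 ± 0.41, adjusted p 0.0168; -2.45 without AFX passage 16), Smad6 (-1.48 ± 0.36, adjusted p 0.0151) and Smad1 (-0.55 ± 0.15, adjusted p 0.0304) lost it without AFX passage 15, Bmp2 also without AF passage 16, and Smad1 also without AF passage 14 or 16 or AFX passage 14. The response genes Id1 (-0.42 ± 0.35, adjusted p 0.517) and Id3 (-0.11 ± 0.38, adjusted p 0.904) did not pass. In the list of FGF ligands, receptors and ERK feedback genes, 4 of 21 were lower and 2 higher, with a median of -0.22. The calls numbered 2 without AFX passage 15 and 8 without AFX passage 16. Fgf17 was at 4.65, 4.82 and 6.61 CPM in AF and 0.288, 0.404 and 0.537 CPM in AFX (-3.69 ± 0.53, adjusted p 4.83e-04). Fgf8, which is expressed in the streak, was at 52.1, 33 and 88.7 CPM in AF and 11.5, 2.42 and 27.6 CPM in AFX (-2.04 ± 0.74, adjusted p 0.113; -2.97 without AFX passage 16) and passed only without AFX passage 16 among the fits with 1 sample left out. Dusp6, an ERK phosphatase gene that ERK itself induces, was at 98.6, 94.1 and 111 CPM in AF and 61.8, 60.8 and 77.2 CPM in AFX (-0.61 ± 0.15, adjusted p 0.0163), a call lost without AF passage 16 or AFX passage 14 or 15. The ERK targets Spry2 (-0.06 ± 0.34, adjusted p 0.943), Spry4 (-1.0 ± 0.44, adjusted p 0.188) and Etv4 (-0.18 ± 0.3, adjusted p 0.785) did not pass.

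The retinoic acid list was divided, with 4 of 16 tested genes higher and 4 lower and a median of -0.03, which became 0.18 when genes under a mean of 5 CPM were left out and 0.08 without AFX passage 16. Without AFX passage 14 5 passed. Cyp26a1, which degrades retinoic acid, was at 94.4, 56.6 and 142 CPM in AF and 4.75, 4.31 and 11.4 CPM in AFX (-3.83 ± 0.74, adjusted p 0.00756; -4.42 without AFX passage 16). Aldh1a2, which makes it, had 2 counts in the AFX libraries and 43 in AF, a ratio of 24.9 (exact 95% binomial interval 6.48 to 212, adjusted p 0.00923; ratio 14.2 without AFX passage 14 and 38.4 without AFX passage 15). Enzymes of both steps were thus lower. Dhrs3, a retinal reductase gene, was at 7.31, 3.21 and 7.01 CPM in AF and 1.44, 1.35 and 1.43 CPM in AFX (-2.04 ± 0.47, adjusted p 0.0101). The receptor gene Rara was at 30.04, 26.7 and 25.8 CPM in AF and 15.3, 13.1 and 16.5 CPM in AFX (-0.87 ± 0.16, adjusted p 0.00261). Of the higher genes, the binding protein gene Crabp2 was at 13.6, 8.03 and 6.71 CPM in AF and 37.2, 26.1 and 14.3 CPM in AFX (1.48 ± 0.33, adjusted p 0.0103). It lost the call without AF passage 15, Crabp1 (1.53 ± 0.4, adjusted p 0.0206) without AF passage 14 or AFX passage 14 or 15, Stra6 (1.31 ± 0.34, adjusted p 0.0206) without AF passage 14 or 16 or AFX passage 14 or 15, and Rarg on chromosome 15 (0.59 ± 0.14, adjusted p 0.00995) without AFX passage 14.

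Of 20 tested members of the neural plate and progenitor list, 6 were higher and none lower, with a median of 1.24. The summed level of the list, in which abundant members weigh most, overlapped between the media, at 796 to 907 CPM in AF and 858 to 1057 CPM in AFX. The mean log2 level of the tested members did not overlap, at 2.34 to 2.81 in AF and 3.22 to 4.06 in AFX. Tubb3, a neuronal tubulin gene, was at 15.2, 11.2 and 8.51 CPM in AF and 36.7, 35.7 and 29.1 CPM in AFX (1.55 ± 0.19, adjusted p 1.46e-04). Sox11, a SoxC factor gene, was at 192, 157 and 160.3 CPM in AF and 209, 260.2 and 311 CPM in AFX (0.62 ± 0.13, adjusted p 0.00641). The Notch ligand gene Dll1 was at 1.6, 6.14 and 1.7 CPM in AF and 14.9, 7.53 and 14.1 CPM in AFX (1.92 ± 0.43, adjusted p 0.00971). These 3 kept the call without any 1 sample, Dll1 with a change of 2.89 without AF passage 15. Lhx2 (4.94 ± 1.35, adjusted p 0.0315; 8.73 without AF passage 14, 4.31 without AF passage 15, 4.32 without AF passage 16 and 3.38 without AFX passage 16), a LIM homeobox gene, lost the call without AF passage 15 or 16 or AFX passage 16, and Zic1 (3.3 ± 0.99, adjusted p 0.0497; 1.8 without AFX passage 16) without any 1 sample other than AFX passage 15. Six3 (2.47 ± 1.01, adjusted p 0.165) and Sox1 (1.46 ± 0.71, adjusted p 0.24; 2.29 without AF passage 14), which mark anterior neural plate and neural progenitors, and Nes (-0.15 ± 0.13, adjusted p 0.542), the nestin gene, did not pass. The count was 3 without AF passage 15 or 16 and 4 without AF passage 14 or AFX passage 16, and the median 0.81 without AF passage 16. Without the filter on low counts 12 passed, and with the 6 AFX and AF samples alone the median was 0.47. AFX passage 16 carried the highest AFX levels of both the neural list and the endoderm and NODAL lists.

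Extracellular matrix genes held the largest number of falls of the lists, though not the largest share. Of 43 laminin, integrin and other matrix genes tested, 21 were lower and none higher, with a median of -0.91. Fn1, the fibronectin gene, was at 538, 666 and 572 CPM in AF and 168, 159 and 190.4 CPM in AFX (-1.78 ± 0.27, adjusted p 0.00138). Tnc, the tenascin C gene, was at 108, 80.9 and 112 CPM in AF and 0.719, 4.04 and 3.49 CPM in AFX (-5.28 ± 0.68, adjusted p 8.18e-04). Nid1, a nidogen gene of basement membranes, was at 34.2, 45.6 and 62.6 CPM in AF and 8.2, 6.05 and 12.4 CPM in AFX (-2.41 ± 0.28, adjusted p 1.20e-04). The laminin genes Lama5 (-1.13 ± 0.19, adjusted p 0.00186), Lamb1 (-0.76 ± 0.13, adjusted p 0.00161) and Lamc1 (-0.91 ± 0.17, adjusted p 0.00304), whose products form one trimer, all fell. So did the integrin genes Itgb1 (-0.87 ± 0.15, adjusted p 0.00157), Itgav (-1.26 ± 0.13, adjusted p 4.15e-05) and Itga3 (-1.52 ± 0.22, adjusted p 8.23e-04), receptors for that matrix. The integrin genes Itga5 on chromosome 15 (-0.37 ± 0.18, adjusted p 0.236) and Itga6 (0.17 ± 0.16, adjusted p 0.584) and the laminin gene Lama1 (-0.12 ± 0.21, adjusted p 0.79) were among the 22 that did not pass. Without any 1 sample the count stayed between 14, without AFX passage 14, and 20, and 13 of the 21 genes passed in all 6 of these fits.

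Of 33 collagen genes tested, 14 were lower and 1 higher, with a median of -0.72. Col1a1 was at 96.4, 91.9 and 111 CPM in AF and 19.99, 12 and 6.98 CPM in AFX (-2.93 ± 0.44, adjusted p 0.00163). Col3a1 was at 116, 85.4 and 51.2 CPM in AF and 6.26, 0.538 and 7.34 CPM in AFX (-4.08 ± 0.61, adjusted p 0.00183). Col5a2 was at 46.5, 59.2 and 44.7 CPM in AF and 3.31, 2.69 and 3.94 CPM in AFX (-3.9 ± 0.42, adjusted p 1.60e-04). These encode fibrillar collagens. The basement membrane collagens Col4a1 (-1.11 ± 0.19, adjusted p 0.00203) and Col4a2 (-1.54 ± 0.22, adjusted p 4.52e-04) fell by less. Col18a1 (0.23 ± 0.21, adjusted p 0.577) did not pass, and Col22a1 on chromosome 15 was the higher one (1.27 ± 0.33, adjusted p 0.0203), a call lost without AF passage 14 or 16 or AFX passage 15. The count stayed between 13 and 14 with any 1 sample left out.

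Fibroblast genes moved with the matrix genes. Of 13 tested markers of feeder fibroblasts, of which Col1a1, Col1a2, Col3a1 and Col6a3 are collagens counted above, 9 were lower and 1 higher, with a median of -2.40. The summed level of the list was 382 to 518 CPM in AF and 136 to 181 CPM in AFX. Postn, the periostin gene, was at 3.72, 3.59 and 10.01 CPM in AF and 0.0719, 0.269 and 0.179 CPM in AFX (-5.09 ± 0.71, adjusted p 4.19e-04; -4.44 without AF passage 16). Pdgfrb, a PDGF receptor gene, was at 12.8, 13.4 and 8.21 CPM in AF and 4.1, 2.56 and 4.03 CPM in AFX (-1.66 ± 0.29, adjusted p 0.00205). None of the tested markers was at 0 in all AFX samples. Thy1, a surface marker also found on other cells, was at 1.46, 4.54 and 0.901 CPM in AF and 16.1, 12.2 and 5.998 CPM in AFX (2.28 ± 0.49, adjusted p 0.00713; 3.3 without AF passage 15), in the opposite direction. In these bulk samples fewer cells of a type and less RNA per cell cannot be told apart, and the part of fibroblasts in the matrix result was not tested. Of 12 visceral endoderm markers 1 had enough counts to be tested and did not pass, and Afp was at 0 in all 6 samples. Of 12 listed and 7 tested extraembryonic ectoderm and trophoblast markers 3 were lower and none higher. Bmp4 and Tfap2c are among these calls and are also counted in other lists. The summed level was 94.3 to 195 CPM in AF and 49.2 to 90.6 CPM in AFX. Eomes, also on the streak list and not past the threshold (above), made up most of that sum in every sample. Elf5 was at 0 in all 6 samples.

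Of 22 genes of epithelial identity and the epithelial-mesenchymal transition, 10 were lower and 2 higher, with a median of -1.05. Cldn6, a tight junction claudin gene, was at 39.5, 60.02 and 55.8 CPM in AF and 6.83, 5.25 and 13.3 CPM in AFX (-2.6 ± 0.37, adjusted p 9.11e-04). Esrp1, an epithelial splicing regulator gene, was at 48.7, 83.2 and 66 CPM in AF and 14.7, 6.996 and 15.1 CPM in AFX (-2.4 ± 0.3, adjusted p 3.41e-04). Krt8, a keratin gene on chromosome 15, was at 159, 319 and 256 CPM in AF and 60.5, 65.4 and 74 CPM in AFX (-1.88 ± 0.35, adjusted p 0.00513). Its partner Krt18 on the same chromosome was at 123, 451 and 187 CPM in AF and 64.2, 54.8 and 84.1 CPM in AFX (-1.91 ± 0.45, adjusted p 0.0212). AF passage 15 was the highest sample for both keratins, and Krt18 (-1.19 without AF passage 15) lost the call without it or without AFX passage 14 or 15. The 2 higher genes encode repressors of epithelial genes. Zeb1 was at 40.9, 27.6 and 32.1 CPM in AF and 47.6, 57.9 and 55.6 CPM in AFX (0.68 ± 0.16, adjusted p 0.0117). Zeb2 was at 43.2, 25.5 and 30.5 CPM in AF and 55.1, 80.3 and 61.5 CPM in AFX (0.99 ± 0.21, adjusted p 0.00603). Zeb1 missed the threshold without AFX passage 15 (adjusted p 0.0534). Epcam (-0.09 ± 0.17, adjusted p 0.811) and Vim (-0.38 ± 0.18, adjusted p 0.195), the vimentin gene, did not pass. The count of all calls was 6 without AFX passage 15.

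Genes of meiosis and of the piRNA pathway, which germ cells use to silence transposons, held the highest share of rises among the lists. Of 42 genes, 18 had enough counts to be tested, and 8 of these were higher and 1 lower, with a median of 1.14. The share describes the 18 and not the 42. Beside Sycp3, Rnf17, a tudor-domain gene, was at 0.931, 0.378 and 1.1 CPM in AF and 23.5, 22.5 and 12.3 CPM in AFX (4.6 ± 0.56, adjusted p 1.78e-04). Dmc1, the meiotic recombinase gene on chromosome 15, was at 1.06, 1.61 and 1.1 CPM in AF and 18.3, 11.8 and 15 CPM in AFX (3.56 ± 0.41, adjusted p 1.10e-04), a change well above the median of 0.54 on that chromosome. Hormad2, which acts on chromosome axes in meiosis, was at 0.399, 0.851 and 0.1001 CPM in AF and 3.81, 4.17 and 4.74 CPM in AFX (3.18 ± 0.64, adjusted p 0.00487; 4.11 without AF passage 15). Tex19.1, a germline gene also active in pluripotent cells, was at 0.266, 0 and 1.2 CPM in AF and 8.2, 5.38 and 6.36 CPM in AFX (3.72 ± 0.68, adjusted p 0.00285), and the change was 3.09 without AF passage 15 and 5.74 without AF passage 16. These genes lay below 2 CPM in every AF sample and above 3 CPM in every AFX sample. Tdrkh, a tudor-domain gene of piRNA trimming, was at 29.4, 53.7 and 25.7 CPM in AF and 92.4, 77 and 60.7 CPM in AFX (1.08 ± 0.23, adjusted p 0.00835). Tdrd5 went against the others, at 15.8, 24.5 and 17.8 CPM in AF and 3.95, 2.83 and 3.22 CPM in AFX (-2.52 ± 0.31, adjusted p 1.72e-04). Tex15 (2.13 ± 0.6, adjusted p 0.0438) lost the call without any 1 sample and Zcwpw1 (1.5 ± 0.44, adjusted p 0.0446) without any of 4, AF passages 14 and 16 and AFX passages 14 and 15, while the other 7 calls of the list held. The genes Dazl and Ddx4 were not tested, because their counts were too low.

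Promoters of Sycp3, Dmc1 and Tex19.1 are printed as those of the higher genes that held a motif, because many germline genes are known to be held silent by complexes that bind E-boxes (CACGTG) or E2F6-type sites (TCCCGC). Each is 250 bases ending before the start site, from RefSeq on GRCm38.p6, with these motifs on either strand in capitals.
Sycp3: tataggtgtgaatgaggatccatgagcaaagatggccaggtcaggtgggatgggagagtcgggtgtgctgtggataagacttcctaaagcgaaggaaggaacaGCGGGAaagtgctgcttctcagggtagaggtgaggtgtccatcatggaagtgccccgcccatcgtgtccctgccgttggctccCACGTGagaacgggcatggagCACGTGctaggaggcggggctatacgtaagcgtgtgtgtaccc
Dmc1: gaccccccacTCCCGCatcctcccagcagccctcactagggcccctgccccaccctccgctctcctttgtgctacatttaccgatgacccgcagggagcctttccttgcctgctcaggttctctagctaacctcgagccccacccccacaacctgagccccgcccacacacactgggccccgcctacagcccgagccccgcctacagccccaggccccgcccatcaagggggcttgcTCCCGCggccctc
Tex19.1: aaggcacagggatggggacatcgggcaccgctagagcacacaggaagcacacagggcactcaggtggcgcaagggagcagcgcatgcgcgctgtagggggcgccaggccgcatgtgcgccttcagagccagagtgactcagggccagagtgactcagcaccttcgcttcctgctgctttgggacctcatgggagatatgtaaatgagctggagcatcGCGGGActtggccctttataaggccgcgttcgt
Sycp3 (chr10:88459337-88459586, plus strand) holds 2 E-boxes, 64 and 43 bases before the start, and 1 E2F6-type match. Dmc1 (chr15:79605110-79605359, minus strand) holds 2 E2F6-type matches and Tex19.1 (chr11:121145893-121146142, plus strand) holds 1. Over 32851 mouse promoters of this length, 6.02% held CACGTG and 16.9% held TCCCGC, searched on both strands. Of 17 matched promoters of 14 tested genes on the list, 4 held an E-box (23.5%) and 8 an E2F6-type match (47.1%). Of the 7 matched genes past the threshold, 1 held an E-box and 4 an E2F6-type match, and of the 7 that did not pass, 3 and 3 did. The other matched higher genes, Hormad2, Tdrkh and Zcwpw1, held neither. Tdrd5, which fell, is among those with an E2F6-type match.

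Of 17 genes encoding repressors of germline genes, 2 were higher and 1 lower, with a median of 0.09 that turned to -0.03 without AF passage 15. Mga, which pairs with Max at E-boxes, was at 329.5, 356 and 328 CPM in AF and 431, 445 and 435 CPM in AFX (0.37 ± 0.09, adjusted p 0.0131), a call lost without AF passage 14 or 16 or AFX passage 15. L3mbtl2, a subunit of the same complex, was at 71, 53.5 and 73.8 CPM in AF and 109, 107 and 116 CPM in AFX (0.75 ± 0.15, adjusted p 0.00426) and lies on chromosome 15. Atf7ip, a partner of the histone methyltransferase encoded by Setdb1, was at 149, 169 and 128 CPM in AF and 72.5, 84.6 and 75.6 CPM in AFX (-0.94 ± 0.15, adjusted p 0.00132). E2f6 (-0.1 ± 0.16, adjusted p 0.755), Max (0.09 ± 0.16, adjusted p 0.805) and Setdb1 (0.22 ± 0.15, adjusted p 0.409) did not pass. Of 13 genes of DNA methylation and its removal, 2 were higher, Hells (0.5 ± 0.14, adjusted p 0.0312) and Tet1 (0.34 ± 0.1, adjusted p 0.0446), each by less than 1.5-fold and each lost without at least 3 of the single samples, with 0 calls without AF passage 15, AFX passage 15 or AFX passage 16 and 1 without AFX passage 14. Dnmt3b, a de novo methyltransferase gene, was at 1034, 589.7 and 915 CPM in AF and 1361, 1149.7 and 1466 CPM in AFX (0.65 ± 0.22, adjusted p 0.0815), and Dnmt1 (0.26 ± 0.1, adjusted p 0.126) did not pass. Of 9 primordial germ cell genes 3 were tested, and of these the AP-2 gamma gene Tfap2c (-2.97 ± 0.61, adjusted p 0.00569; -3.68 without AFX passage 14) and the receptor gene Kit were lower, while Prdm1 (-2.36 ± 0.72, adjusted p 0.0646; -4.26 without AFX passage 16) passed only without AFX passage 16 among the fits with 1 sample left out. Kit was at 32, 27.6 and 38.2 CPM in AF and 3.95, 3.63 and 8.33 CPM in AFX (-2.61 ± 0.31, adjusted p 1.58e-04). It is also expressed in other embryonic cells.

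Of 31 sterol and fatty acid genes 4 were lower and 1 higher, with a median of -0.27, and 3 passed without AFX passage 15. Insig1, which retains the sterol sensor in the endoplasmic reticulum, was at 50.9, 51.3 and 37.8 CPM in AF and 87.9, 106 and 118 CPM in AFX (1.16 ± 0.2, adjusted p 0.00217). Srebf1, a lipogenic factor gene, was at 116, 101 and 117 CPM in AF and 71.8, 60.01 and 74.7 CPM in AFX (-0.69 ± 0.13, adjusted p 0.00285). Of 24 glycolysis and hypoxia genes 1 was lower, Slc2a3, a glucose transporter gene, at 763, 2421 and 673 CPM in AF and 547, 407 and 279.6 CPM in AFX (-1.64 ± 0.47, adjusted p 0.048). AF passage 15 stood far above the rest there, and the change was -0.8 without AF passage 15, with an adjusted p of 0.185. The call was also lost without any AFX sample. The list held 0 calls without AFX passage 15 or 16, 2 without AFX passage 14 and 3 without AF passage 16. The 14 integrated stress response genes held no call by edgeR with all samples, with 2 at an unadjusted p under 0.05 and 1 by DESeq2's Wald test. The list held 1 call without AF passage 14, AFX passage 14 or AFX passage 16. Of 14 p53 targets tested 4 were higher and 1 lower, with a median of 0.29, and 8 passed without AF passage 15. Sesn2 was at 75.1, 50.6 and 63.3 CPM in AF and 108, 113 and 94 CPM in AFX (0.74 ± 0.14, adjusted p 0.00306). Zmat3 was at 96, 129 and 95.4 CPM in AF and 180.3, 198 and 151 CPM in AFX (0.72 ± 0.14, adjusted p 0.00372). Aen (0.49 ± 0.11, adjusted p 0.00756) and, on chromosome 15, Gtse1 (1.02 ± 0.13, adjusted p 2.13e-04) were the other rises, Perp (-1.04 ± 0.24, adjusted p 0.0113), a desmosomal gene, the fall, and all 5 calls held without any 1 sample. Cdkn1a (0.25 ± 0.2, adjusted p 0.506) and Mdm2 (0.2 ± 0.15, adjusted p 0.466), well-known p53 targets, did not pass.

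Of 19 cell cycle genes tested 3 were lower and none higher, with a median of -0.23, and each of the 3 encodes an inhibitor of cyclin-dependent kinases. Cdkn2a, the locus of p16 and ARF, was at 1.6, 5.86 and 4.8 CPM in AF and 0 CPM in all 3 AFX samples, at least 13.8-fold lower in AFX (adjusted p 0.0015). Its neighbour Cdkn2b was at 6.25, 7.37 and 4.5 CPM in AF and 0.288, 0.135 and 0.806 CPM in AFX (-3.79 ± 0.72, adjusted p 0.00359; -4.66 without AFX passage 16). Cdkn1c, an imprinted gene, was at 118, 79.4 and 115 CPM in AF and 49, 37.1 and 44 CPM in AFX (-1.26 ± 0.19, adjusted p 7.59e-04). All 3 held without any 1 sample, and 5 of the list passed without AFX passage 16. The inhibitor genes Cdkn1b (-0.63 ± 0.21, adjusted p 0.0695), Cdkn2d (-0.98 ± 0.34, adjusted p 0.0839) and Cdkn1a, given above with a positive change, did not pass, with Cdkn1b past the threshold without AF passage 16, and Cdkn2c was not tested. Mki67 (-0.25 ± 0.11, adjusted p 0.18), Ccnd1 (0.06 ± 0.36, adjusted p 0.946) and, on chromosome 15, Myc (-0.26 ± 0.39, adjusted p 0.762) did not pass.

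Imprinted genes were listed after their values had been seen, so the list describes these samples and supports nothing. Of 42 tested, 7 were higher and 7 lower, with a median of -0.03. Kcnq1ot1, a long noncoding RNA antisense to Kcnq1 and expressed from the paternal allele (chr7:143203458-143296549), was at 209.8, 146 and 144 CPM in AF and 2.44, 1.61 and 1.79 CPM in AFX (-6.36 ± 0.23, adjusted p 4.06e-10). FS1 was at 1.54 ± 0.339 CPM and FS2 at 326 ± 55.1 CPM, and the call was lost with both FS lines in 1 group. Cdkn1c, which that RNA is known to silence on the paternal allele, was lower as well (above). Airn, the antisense RNA of Igf2r, was at 2.13, 8.98 and 3.2 CPM in AF and 0 CPM in all 3 AFX samples, with AF passage 15 highest, at least 16.1-fold lower (adjusted p 0.00157; at least 9.003-fold without AF passage 15), while Igf2r did not pass (0.09 ± 0.18, adjusted p 0.825). Sfmbt2 was at 99.2, 92.4 and 101 CPM in AF and 6.76, 4.04 and 6.62 CPM in AFX (-4.04 ± 0.47, adjusted p 3.45e-04). Peg10 was at 434, 435 and 512 CPM in AF and 118, 198 and 239 CPM in AFX (-1.32 ± 0.29, adjusted p 0.0112). In the opposite direction, 3 noncoding RNAs of 1 cluster on chromosome 12 were all higher. Meg3 was at 222, 273 and 262 CPM in AF and 543, 512 and 487 CPM in AFX (1.03 ± 0.14, adjusted p 3.44e-04). Rian was at 292, 332 and 279 CPM in AF and 651, 577 and 491 CPM in AFX (0.93 ± 0.13, adjusted p 5.25e-04), and its neighbour Mirg was at 52.2, 31.3 and 55.7 CPM in AF and 89.5, 93.6 and 79.4 CPM in AFX (0.92 ± 0.2, adjusted p 0.00906). Snhg14, the noncoding host RNA that runs antisense to Ube3a, was at 32.2, 45.4 and 29.9 CPM in AF and 162, 175 and 141 CPM in AFX (2.15 ± 0.21, adjusted p 3.57e-05), and Ube3a did not pass (-0.12 ± 0.1, adjusted p 0.532). The strand setting of the counting is not given in the sources used here, so reads of these antisense RNAs and of their partners cannot be told apart. Peg3 (0.04 ± 0.25, adjusted p 0.951) did not pass. H19 (-1.0 ± 0.88, adjusted p 0.559) did not pass either, and its sign rested on AF passage 14 (1.29 without AF passage 14).

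The calls above also depended on which samples set the spread. Of 143 genes named here with a call, 103 passed in every fit with 1 AFX or AF sample left out. With the FS samples out of the fit, 19 lost the call, namely Acvr1b, Col22a1, Crabp1, Dll1, Fzd10, Gata6, Grhl2, Gsc, Hells, Mga, Nodal, Sfrp2, Slc2a3, Tdrkh, Tet1, Tnks2, Zcwpw1, Zic1 and Zic2. With both FS lines in 1 group, 40 lost it, namely Bmp2, Col22a1, Col5a2, Cyp26a1, Cyp2b23, Dkk1, Dmc1, Dppa2, Dusp6, Fgf4, Fzd10, Gdf3, Gm10040, Gm14149, Gm29084, Gm38194, Gm42860, Gm9864, Gsc, Kcnq1ot1, Kdm5d, Krt8, Lhx1, Lhx2, Noct, Nodal, Parp12, Pdgfra, Platr15, Sfrp2, Slc2a3, Smad6, Snhg14, Stra6, Tet1, Tex15, Tnks2, Wdr31, Zcwpw1 and Zic1. Kdm5d is Y-linked, and the FS lines differed in the median log2 level of Y-linked genes, at -3.26 to -2.84 in FS1 and 3.50 to 3.68 in FS2. The spread of the pooled FS group holds that difference. The FS samples also bear on which genes pass the filter on low counts: 16052 were tested with them and 14953 with the 6 AFX and AF samples alone, where 141 of the 143 genes had a value. Without the filter on low counts 19 named genes gained a call, namely Cdkn1b, Cer1, Dnmt3b, Eomes, Fgf8, H19, Lefty1, Lefty2, Lgr5, Nanog, Prdm1, Six3, Sox1, Sp5, Spry4, T, Tnks, Vim and Wnt3, while Tet1 and Tnks2 lost theirs.

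Counts per list moved with these choices as well. Without the filter on low counts, 6 general pluripotency, 5 formative, 7 WNT receptor and inhibitor, 5 WNT machinery, 11 FGF, 8 sterol, 8 glycolysis, 8 cell cycle, 5 trophoblast and 3 stress response genes passed. With the 6 samples alone, 1 formative, 1 WNT receptor and inhibitor, 1 WNT machinery, 3 sterol, 0 glycolysis and 0 DNA methylation genes did. With both FS lines in 1 group, these were 2 WNT receptor and inhibitor, 1 WNT machinery, 3 FGF, 3 sterol, 0 glycolysis and 1 DNA methylation gene. At a mean of at least 5 CPM, 1 WNT receptor and inhibitor, 4 retinoic acid, 3 neural, 1 cell cycle, 6 fibroblast and 0 trophoblast genes passed. DESeq2's Wald test called 5 general pluripotency and 7 cell cycle genes. Of the medians, that of the streak list was -1.36 and that of the trophoblast list -1.08 without AF passage 16. The BMP median was -0.46, the FGF median -0.40 and the WNT ligand median -0.78 without AFX passage 16. The p53 median was 0.14 without AF passage 14 and 0.55 without AF passage 15.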

How the data were processed

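Total RNA of 21 samples was sequenced, 12 cultured and 9 single epiblasts. The authors deposited 1 table of whole-number read counts per gene. Per the submitters' processing notes, the tools were Trim Galore, TopHat2 2.1.0 and featureCounts 1.5.0 with the build mm10; their settings, the annotation and the strand setting are not given in the sources used here. Gene positions came from GENCODE M21 on GRCm38, which matched 16010 of the 16052 genes tested, and promoters from RefSeq.

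Counts of the 12 cultured samples in 4 groups (AF, AFX, FS1 and FS2, 3 each) were filtered with filterByExpr, scaled by TMM and fitted with edgeR 4.0.16 (R 4.3.3, limma 3.58.1), with the robust quasi-likelihood test of AFX against AF and Benjamini-Hochberg adjustment; DESeq2 1.42.0 was an alternative. An adjusted p under 0.05 was the threshold. CPM are TMM-scaled. A floor of 3 counts per library, 0.216 to 0.404 CPM here, was used where all AFX counts were 0. Intervals cover counting error only. Figures were drawn with matplotlib 3.10.9. Scripts were tested on simulated data. Replicates differed by more than sampling noise (chi-square per degree of freedom 4.84 to 29.0), so none was counted as a duplicate.

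Named genes were the 12 largest called rises and falls whose media did not overlap (mean CPM 10 or more in the medium where the gene was higher), the 6 rises and 6 falls of smallest p (mean CPM 100 or more there), members of the gene lists, and Hprt, Xist and Y-linked genes as label checks. Rian, Mirg and the imprinted list were chosen after values were seen. Members and lists were chosen with earlier results of these data known. Alternatives were other scalings, filters, fits with other samples, a replicate block, and each AFX or AF sample left out in turn.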

Additional observations from a re-analysis of the deposited data

How the results depend on the processing

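Of the medians of 30 lists, 7 changed sign under some setting. The retinoic acid median was 0.18 in place of -0.03 at a mean of at least 5 CPM and 0.08 without AFX passage 16, and the WNT target median 0.02 at a mean of at least 5 CPM and 0.21 without AF passage 16. Without AF passage 15 those of general pluripotency (-0.03), germline repressors (-0.03) and glycolysis (0.03) did so, and those of the WNT machinery and the integrated stress response, both near 0, crossed 0 as well. The causes were not tested. Genes past the threshold numbered 1175 (555 higher, 620 lower) with the 6 AFX and AF samples alone. Without the filter on low counts 1420 genes were lower, and at a mean of at least 5 CPM 572 passed with at least a 2-fold change. The chromosome 15 median was 0.52 with DESeq2's size factors and 0.52 with its Wald test. At a mean of at least 5 CPM the medians were -2.49 for naive, 0.47 for neural (3 members past the threshold), 1.5 for meiosis and piRNA and -0.73 for epithelial genes. Without the filter 11 streak, 8 endoderm, 5 WNT target and 12 neural genes passed; with both FS lines in 1 group 1 streak and 0 WNT target genes did. With the 6 samples alone 2 WNT target genes passed and the medians were 0.47 for neural and 1.39 for meiosis and piRNA genes.

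With 1 sample left out, the count ran from 1187 to 1807, genes higher from 625 to 958 and genes lower from 562 to 871. The medians ran from 0.51 to 0.53 for chromosome 15, -1.88 to -1.29 for naive, -5.21 to -2.5 for endoderm, 0.81 to 1.45 for neural, 0.98 to 1.34 for meiosis and piRNA, -1.49 to -0.81 for epithelial and -1.0 to -0.59 for collagen genes. Members past the threshold ran from 0 to 4 of the streak, 2 to 6 of the endoderm, 0 to 1 of the WNT target, 5 to 13 of the NODAL, 3 to 7 of the neural and 6 to 10 of the epithelial list.

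Passage numbers did not pair the samples: deviations from the medium means correlated at -0.13, -0.10 and 0.20 for passages 14, 15 and 16, and at 0.32 between AF passage 15 and AFX passage 14. With the replicate block 1894 genes passed, 1729 of them among the 1859. With the replicate block and the 6 samples alone 907 passed, 397 higher and 510 lower, with 2 WNT target and 3 neural members and medians of 0.46 for neural and 1.61 for meiosis and piRNA genes.

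Depth limits the low genes: 3 counts are 0.216 to 0.404 CPM, and a gene at 0 in AFX may lie anywhere below that.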
